A study of Homo sapiens with 7 samples.

Results

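The insulin-like growth factor (IGF) genes described here are the ligand gene IGF1, the receptor genes IGF1R and IGF2R and the binding protein genes IGFBP1 to IGFBP7. They were taken by name from the deposited expression table, and all 10 were found among its 23262 genes with values. The table holds RNA-seq of a human embryonic stem cell (hESC) line that the labels call H3 hESC, with eGFP at the heart factor gene NKX2-5 and an alpha-MHC-mCherry reporter, alpha-MHC being the cardiac myosin encoded by MYH6. The number in this line label counts upward from sample to sample, and all samples were treated as 1 line. The 7 groups are undifferentiated hESC on day 0, CD13+/ROR2+ and CD13-/ROR2- cells sorted on day 3 of cardiac differentiation, NKX2-5+ and NKX2-5- cells of day 7, and NKX2-5+ cells of day 14 sorted as alpha-MHC+ or alpha-MHC- (here aMHC+ and aMHC-). The day 7 and day 14 fractions are also labelled CD13+/ROR2+. CD13 and ROR2 are surface proteins used as sort markers, and the labels call the day 3 positive cells mesoderm progenitors and the negative cells endoderm progenitors. Each group is 1 library, so no difference below has a spread between replicates, a test or a p-value, and neighbours in any order of levels could not be told apart from library noise.

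IGF1 and IGF2 are secreted growth factors that act through the receptor tyrosine kinase encoded by IGF1R and through the insulin receptor. The receptor encoded by IGF2R carries IGF2 to the lysosome and clears it. The secreted proteins of IGFBP1 to IGFBP6 bind IGFs tightly, carry them, and hold them back from or release them to the receptors, whereas the product of IGFBP7 binds IGFs weakly and is found in vessel walls and matrix. In the early heart, IGF2 is a growth signal from tissues that surround the myocardium.

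Levels are FPKM, fragments scaled to transcript length and library size, so that genes can be compared per length. Absolute depth is unknown. Relative depth was estimated from the spacing of low values. Day 7 NKX2-5+ was the shallowest of the libraries that could be placed, at 0.603 times the depth of hESC, while day 14 aMHC- was at 3.10 times and day 7 NKX2-5- could not be placed. Day 7 NKX2-5+ also had a general offset: the median-ratio factor of this library was 0.687, against 0.926 to 1.22 for the other 6, so its FPKM values run low for most genes and values after median-ratio scaling are given beside comparisons that use it. Marker sums were read beside the labelled cell types. Pluripotency markers (8 genes) summed to 824 FPKM in hESC, 838 in day 3 CD13-/ROR2- and 318 in day 3 CD13+/ROR2+, and lay between 5.79 and 29.8 FPKM later. Hepatic and visceral endoderm markers (10 genes) summed to 2.29 FPKM in the day 3 CD13-/ROR2- library, labelled endoderm progenitor, with ALB, APOC3, TTR and FGB listed at 0. In day 3 CD13+/ROR2+, labelled mesoderm progenitor, they summed to 30.4 FPKM, of which APOA2 was 27.0, with the same 4 genes listed at 0. This list was not made for progenitors, so these day 3 sums do not test the endoderm or mesoderm label. Heart muscle markers (10 genes) summed to 850 FPKM in day 7 NKX2-5- against 4260 in the NKX2-5+ fraction, and to 5931 and 2293 FPKM in day 14 aMHC+ and aMHC-. Blood markers (6 genes) summed to 77.9 FPKM in day 3 CD13+/ROR2+, of which GYPB was 73.7 with HBZ, PTPRC and SPI1 at 0, and to at most 4.40 elsewhere. Neuroectoderm markers (6 genes) summed to between 25.9 and 93.6 FPKM, nearly all from NES, TUBB3 and OTX2. PAX6, SOX1 and ZIC1 were at most 0.295, 0.0433 and 0.0863 FPKM, each in day 7 NKX2-5-.

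The make-up of the binding protein RNA was different before and after day 3. In hESC and on day 3, IGFBP2 and IGFBP4 together were 95.4% of the summed FPKM of the 7 binding protein genes in hESC, 89.1% in day 3 CD13+/ROR2+ and 95.3% in its negative counterpart. On day 7 and day 14 they were 15.4% in day 7 NKX2-5+, 23.3% in day 7 NKX2-5-, 23.3% in day 14 aMHC+ and 26.9% in day 14 aMHC-. IGFBP3, IGFBP5 and IGFBP7 together were 84.6%, 76.4%, 75.0% and 72.2% of the sum in those 4 libraries, against 1.58% in hESC, 7.70% in day 3 CD13+/ROR2+ and 4.69% in CD13-/ROR2-. The largest part of this pooled share was IGFBP7 in each of the 4. IGFBP3 alone was 3.81% in day 7 NKX2-5+. IGFBP5 was 1.67% and 1.22% in day 14 aMHC+ and aMHC-, below its 6.88% in day 3 CD13+/ROR2+, and the second largest share in these day 14 libraries was that of IGFBP2 (19.1% and 22.6%). These shares are formed within a library and so do not depend on the scaling between libraries. The genes were pooled with their levels in these libraries known, so the gap between early and late pooled shares is a description and not a test.

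**Figure D1:**
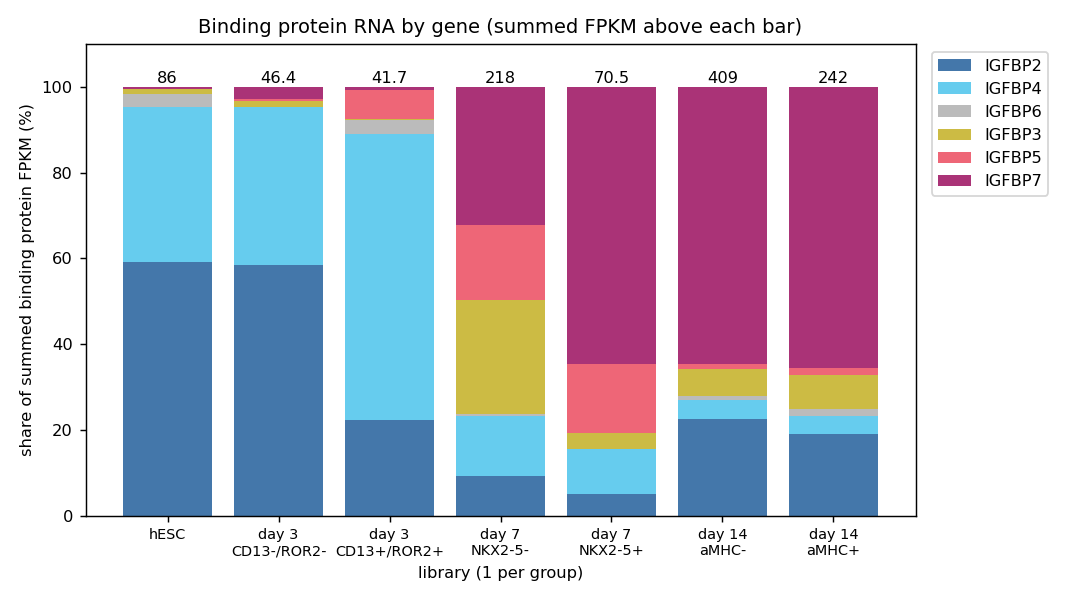
Share of each binding protein gene (percent, vertical axis) in the summed FPKM of IGFBP1 to IGFBP7 in each of the 7 libraries (horizontal axis, 1 bar per library), with the summed FPKM above each bar. IGFBP2 and IGFBP4 make up at least 89.1% of the bar in hESC and on day 3, and IGFBP7 is the largest part of each bar on day 7 and day 14.

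The sum itself was 86.0 FPKM in hESC, 41.7 in day 3 CD13+/ROR2+ and 46.4 in CD13-/ROR2-. It was 70.5 FPKM in day 7 NKX2-5+, 218 in day 7 NKX2-5-, 242 in day 14 aMHC+ and 409 in day 14 aMHC-. After median-ratio scaling, the day 7 NKX2-5+ sum was 103 FPKM and the hESC sum 80.4. The leading gene was IGFBP2 in hESC (59.2% of the sum) and in day 3 CD13-/ROR2- (58.5%), IGFBP4 in day 3 CD13+/ROR2+ (66.8%) and IGFBP7 in all 4 later libraries (64.7%, 32.2%, 65.5% and 64.7% in day 7 NKX2-5+, day 7 NKX2-5-, day 14 aMHC+ and day 14 aMHC-). Day 7 NKX2-5- was the most mixed of the 7, with IGFBP7 at 32.2%, IGFBP3 at 26.6%, IGFBP5 at 17.5% and IGFBP4 at 14.0%.

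IGFBP7 had the widest range of the 10 genes. Its level was 0.405 FPKM in hESC, 0.271 in day 3 CD13+/ROR2+ and 1.30 in CD13-/ROR2-, then 45.6 in day 7 NKX2-5+, 70.2 in day 7 NKX2-5-, 158 in day 14 aMHC+ and 264 in day 14 aMHC-. Every day 7 and day 14 library stood above every earlier one. The lowest of the later levels (day 7 NKX2-5+) was 35.2 times the highest of the earlier levels (day 3 CD13-/ROR2-). IGFBP3, IGFBP5 and the smooth muscle sum given below were also higher in every later library than in any earlier one. The share of all genes that split the libraries this way was not counted, so the split is not shown to be particular to IGFBP7. By rank among the 21550 genes outside small RNA and histone genes, IGFBP7 was number 13248 in day 3 CD13+/ROR2+, 264 in day 7 NKX2-5+, 219 in day 7 NKX2-5-, 166 in day 14 aMHC+ and 127 in day 14 aMHC-. It was thus among the abundant transcripts of the heart muscle fractions as well as of the NKX2-5- cells. The smooth muscle markers (6 genes, none at 0 in any library) summed to 7.08 to 13.7 FPKM in the 3 early libraries and to 549, 613, 876 and 986 in day 7 NKX2-5+, day 7 NKX2-5-, day 14 aMHC+ and day 14 aMHC-. ACTA2 alone was 456, 421, 348 and 410 FPKM of these sums, and TAGLN 21.1, 144, 383 and 440. Over day 3 CD13+/ROR2+, 4 of the 6 were higher by at least 4-fold in day 7 NKX2-5+, against 4.38% of all genes that reached 5 FPKM. In day 7 NKX2-5- 3 of 6 were, against 5.35% of all such genes. The smooth muscle myosin gene MYH11 was at 0.678 and 1.37 FPKM in these day 7 fractions, and SMTN lay between 2.08 and 4.15 FPKM in all 7 libraries. The part of these smooth muscle genes in the IGFBP7 level was not tested.

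IGFBP3, whose protein is the main IGF carrier of adult plasma, was highest in day 7 NKX2-5-. It read 0.847 FPKM in hESC, 0.0686 in day 3 CD13+/ROR2+, 0.596 in CD13-/ROR2-, 2.69 in day 7 NKX2-5+, 58.0 in day 7 NKX2-5-, 19.0 in day 14 aMHC+ and 25.8 in day 14 aMHC-. The day 7 fractions were far apart, and the day 14 fractions lay between them. IGFBP5, whose protein binds matrix and bone mineral, was also highest in day 7 NKX2-5-, at 38.1 FPKM. Its other levels were 0.102 FPKM in hESC, 0.283 in day 3 CD13-/ROR2-, 2.87 in day 3 CD13+/ROR2+, 11.3 in day 7 NKX2-5+, 4.05 in day 14 aMHC+ and 4.98 in day 14 aMHC-. It differed from IGFBP3 and IGFBP7 in being higher in both day 7 libraries than in either day 14 library, and in being 10.1-fold higher in day 3 CD13+/ROR2+ than in CD13-/ROR2-, at low levels.

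IGFBP2, a binding protein abundant in embryonic tissue, was high at the start, low in the positive fractions of the middle days and high again on day 14. It read 51.0 FPKM in hESC, 27.1 in day 3 CD13-/ROR2-, 9.28 in day 3 CD13+/ROR2+, 3.51 in day 7 NKX2-5+, 20.2 in day 7 NKX2-5-, 46.2 in day 14 aMHC+ and 92.6 in day 14 aMHC-. The hESC and day 14 aMHC+ levels differed by 1.10-fold. IGFBP4, whose protein restrains IGF action until it is cut by the protease encoded by PAPPA, was present throughout. Its levels were 31.1 FPKM in hESC, 27.8 in day 3 CD13+/ROR2+, 17.1 in CD13-/ROR2-, 7.37 in day 7 NKX2-5+, 30.6 in day 7 NKX2-5-, 10.1 in day 14 aMHC+ and 17.3 in day 14 aMHC-. Its highest level was 4.21 times its lowest, the narrowest range of the 5 abundant binding protein genes.

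IGFBP6, whose protein prefers IGF2 over IGF1, stayed low: 2.64 FPKM in hESC, 1.34 in day 3 CD13+/ROR2+, 0.646 in day 7 NKX2-5-, 4.07 in day 14 aMHC+ and 3.93 in day 14 aMHC-, and it was listed at 0 in day 3 CD13-/ROR2- and day 7 NKX2-5+. No fold is given against those 2 libraries, since a listed 0 can be a failed estimate: ARPC2, a part of the actin nucleating complex of all cells, is also listed at 0 in day 3 CD13-/ROR2-. IGFBP1, a liver and decidua gene, was listed at 0 in all 7 libraries.

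**Figure D2:**
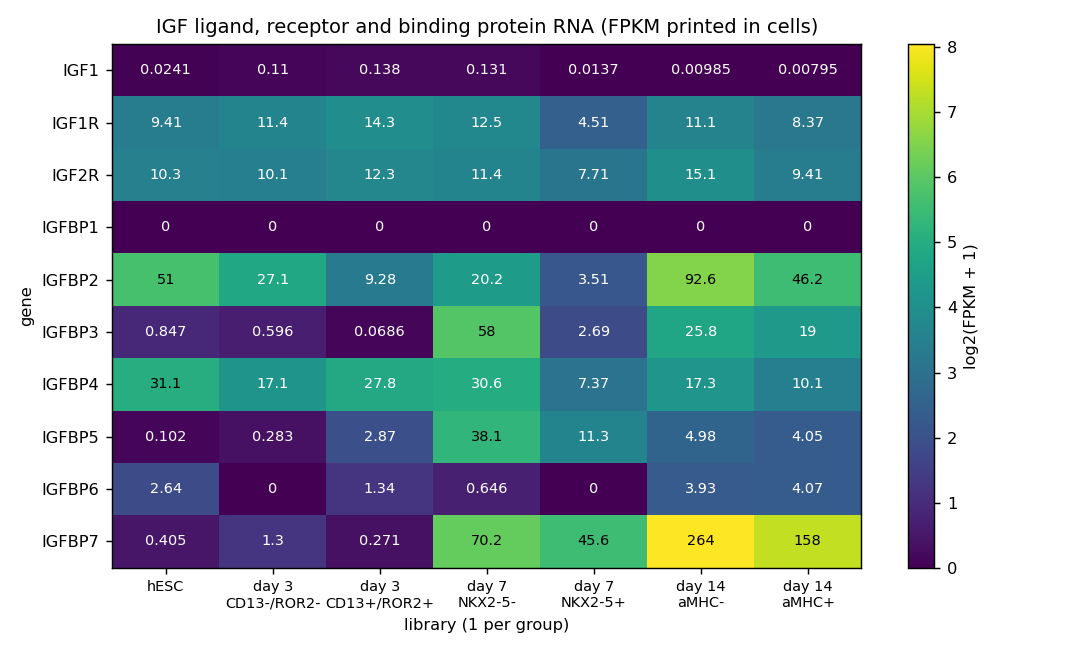
Level of each of the 10 genes (rows) in each library (columns), coloured by log2(FPKM + 1) with the FPKM value printed in each cell. IGFBP7 goes from at most 1.30 FPKM in the 3 early libraries to at least 45.6 in the 4 later ones, while IGF1R and IGF2R keep similar colours throughout.

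RefSeq promoter sequences (GRCh38.p14; the expression table was made on hg19) were found for 8 of the 10 genes, all but IGFBP1 and IGFBP7. The 250 bases before the annotated start are shown for IGFBP3 and IGFBP5, both highest in day 7 NKX2-5-, and for IGFBP4, at 7.37 FPKM or more in every library. They lie at chr7:45921273-45921522 (minus strand), chr2:216695550-216695799 (minus strand) and chr17:40443200-40443449 (plus strand). Capitals mark TATAAA or TATATA, searched on both strands as the letters of a TATA box.
IGFBP3: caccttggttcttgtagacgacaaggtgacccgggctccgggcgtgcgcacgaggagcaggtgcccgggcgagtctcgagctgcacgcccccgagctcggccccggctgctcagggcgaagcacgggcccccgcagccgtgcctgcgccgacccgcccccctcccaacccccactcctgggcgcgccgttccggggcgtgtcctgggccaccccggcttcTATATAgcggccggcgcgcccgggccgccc
IGFBP5: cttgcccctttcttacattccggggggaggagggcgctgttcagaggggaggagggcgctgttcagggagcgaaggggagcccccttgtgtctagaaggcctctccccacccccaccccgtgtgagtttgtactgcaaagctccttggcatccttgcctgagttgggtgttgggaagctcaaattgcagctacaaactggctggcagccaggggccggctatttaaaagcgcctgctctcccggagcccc
IGFBP4: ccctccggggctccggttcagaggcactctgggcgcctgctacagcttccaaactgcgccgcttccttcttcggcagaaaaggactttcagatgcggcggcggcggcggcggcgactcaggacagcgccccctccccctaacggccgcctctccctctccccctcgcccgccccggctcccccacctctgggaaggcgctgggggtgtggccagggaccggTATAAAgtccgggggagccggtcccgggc

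The IGFBP3 window holds TATATA with its first base 30 bases before the start, and the IGFBP4 window holds TATAAA 29 bases before it. The IGFBP5 window holds neither of these exact strings. Looser TATA forms were not searched, and near its end this window reads tatttaaa, so it is not called free of a TATA box. Of 35116 RefSeq promoter windows of this length, 10.7% hold TATAAA and 3.73% TATATA. The GC box letters GGGCGG, also searched on both strands, were found in 42.6% of all windows. They occur at 2 places in the IGFBP3 window, 1 in the IGFBP4 window and 0 in the IGFBP5 window. In the sequences shown they lie on the other strand and read ccgccc. The windows of IGFBP3 (32 CpG) and IGFBP4 (24) are richer in CpG than that of IGFBP5 (8), where the median of all windows is 11. These are letter matches in short windows, with no binding or methylation measured here. Among protein-coding genes in RefSeq order, IGFBP5 stands next to IGFBP2 on chromosome 2, and IGFBP3 next to IGFBP1 on chromosome 7. The levels of these neighbours were unlike: IGFBP2 was at 51.0 FPKM in hESC where IGFBP5 was at 0.102, and IGFBP1 was listed at 0 in day 7 NKX2-5- where IGFBP3 was at 58.0.

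Of the members that reached 5 FPKM in some library, the receptor genes varied least. IGF1R, the signalling receptor, was at 9.41 FPKM in hESC, 14.3 in day 3 CD13+/ROR2+, 11.4 in CD13-/ROR2-, 4.51 in day 7 NKX2-5+, 12.5 in day 7 NKX2-5-, 8.37 in day 14 aMHC+ and 11.1 in day 14 aMHC-. IGF2R was at 10.3, 12.3, 10.1, 7.71, 11.4, 9.41 and 15.1 FPKM in the same libraries. Both were lowest in day 7 NKX2-5+, the library with the general offset. After median-ratio scaling IGF1R was still lowest there (6.57 FPKM against 7.96 to 13.5 elsewhere), while IGF2R was at 11.2 FPKM in a range of 8.94 to 12.4. With libraries set to equal sums without small RNA and histone genes, IGF1R was no longer lowest there. Its log2 ratio of (FPKM + 1) in day 14 aMHC+ over day 7 NKX2-5+ was then -0.06. The quotient of IGF1R over IGF2R, which needs no scaling, was lowest in day 7 NKX2-5+ (0.585) and ranged from 0.738 to 1.16 elsewhere. The insulin receptor gene INSR was lower than IGF1R in all 7, at 1.42 to 5.00 FPKM.

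IGF1 RNA was near 0. It lay between 0.00795 FPKM (day 14 aMHC+) and 0.138 (day 3 CD13+/ROR2+), levels that rest on few reads and from which no order is read. The ligand RNA in these cells was that of IGF2, at 0.282 FPKM in hESC, 14.0 in day 3 CD13+/ROR2+, 0.868 in CD13-/ROR2-, 26.1 in day 7 NKX2-5+, 634 in day 7 NKX2-5-, 254 in day 14 aMHC+ and 335 in day 14 aMHC-. Reads of IGF2 are shared with the read-through gene INS-IGF2, listed separately at up to 5.44 FPKM. Per FPKM of summed binding protein RNA there were 2.91 FPKM of IGF2 in day 7 NKX2-5-, 1.05 in day 14 aMHC+, 0.818 in day 14 aMHC-, 0.370 in day 7 NKX2-5+, 0.335 in day 3 CD13+/ROR2+, 0.0187 in CD13-/ROR2- and 0.00328 in hESC. IGF2 RNA exceeded the binding protein sum in day 7 NKX2-5- and, by little, in day 14 aMHC+. This sum counts in full IGFBP7, whose protein binds IGFs weakly. IGFBP7 was 64.7% of it in day 7 NKX2-5+, 32.2% in day 7 NKX2-5-, 65.5% in day 14 aMHC+ and 64.7% in day 14 aMHC-. Quotients without IGFBP7 were not formed and would be higher, so IGF2 is not shown to lie below the tight binders in any of these libraries.

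For 9 pairs of libraries the log2 ratio of (FPKM + 1) was formed. A gene counted as called, higher or lower, if this ratio reached 2 or -2 (4-fold) and the larger of its levels reached 5 FPKM; this is the size rule named below. On this scale low genes move less than their plain quotients. IGFBP2, IGFBP3, IGFBP5 and IGFBP7 were called in at least 1 comparison. The share of all genes called in at least 1 of the 9 was not counted, so only the counts per comparison below stand beside such a share. IGF1, IGF1R, IGF2R, IGFBP1, IGFBP4 and IGFBP6 were called in none under these settings. With a pseudocount of 0.1, IGFBP4 was called lower in day 7 NKX2-5+ over NKX2-5- (-2.04), and with no minimum FPKM, IGFBP6 passed the size in both day 14 libraries over day 7 NKX2-5+, where it is listed at 0.

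Between the day 3 fractions, 0 of 10 members were called, and 4 reached 5 FPKM in either library. Of all 5875 genes that did, 3.69% were higher and 2.54% lower in CD13+/ROR2+. The closest to the threshold was IGFBP5 (log2 ratio 1.59, at most 2.87 FPKM), followed by IGFBP2 (-1.45, 9.28 against 27.1 FPKM). IGFBP4 had 0.67, IGF1R 0.30 and IGF2R 0.26. The 4 members with at least 5 FPKM had a median of 0.28, against 0.03 for all genes tested.

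Against hESC, IGFBP2 was lower in day 3 CD13+/ROR2+ by the size rule (9.28 against 51.0 FPKM, log2 ratio -2.34), 1 of the 4 members that reached 5 FPKM. Among all genes 4.5% were higher and 2.54% lower in that comparison. IGFBP5 had a log2 ratio of 1.81 (2.87 against 0.102 FPKM), short of the size and the minimum. In day 3 CD13-/ROR2- over hESC, 0 members were called, where 1.45% of all genes were higher and 1.17% lower, and IGFBP2 had -0.89. The day 3 comparisons share libraries and are not separate evidence.

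On day 7, IGFBP3 (2.69 against 58.0 FPKM, log2 ratio -4.00) and IGFBP2 (3.51 against 20.2 FPKM, -2.23) were lower in NKX2-5+ than in NKX2-5-, 2 of the 7 members with at least 5 FPKM. Of all genes 2.03% were higher and 5.42% lower. After median-ratio scaling IGFBP3 had -3.69, and IGFBP2 had -1.90 and was no longer called. Just short of the size were IGFBP4 (-1.92, or -1.54 scaled) and IGFBP5 (-1.66, or -1.27 scaled). IGFBP7 differed least of the abundant binding protein genes, at -0.61 (-0.19 scaled). The 7 members with at least 5 FPKM had the lower value in NKX2-5+, the library with the general offset, and IGF2R had -0.51 (-0.12 scaled). The share of all genes with the lower value there was not counted. The median of the 7 members with at least 5 FPKM was -1.66, against -0.47 for all genes tested, and the scaling shift of this pair was -0.43.

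Fibroblast and matrix markers were higher in day 7 NKX2-5- along with IGFBP3: the 10 genes summed to 849 FPKM there and 68.6 in NKX2-5+. By the size rule 8 of 10 were lower in NKX2-5+, where 5.42% of all genes tested were, and none was at 0 in either library. Hepatic and visceral endoderm markers summed to 399 FPKM in NKX2-5- and 70.5 in NKX2-5+ (6 of 10 lower, HNF4A at 0 in NKX2-5+). Epicardial markers (6 genes) summed to 36.3 FPKM in NKX2-5- and 1.77 in NKX2-5+ (3 of 6 lower), and endothelial markers (8 genes) to 39.3 and 9.73 (1 of 8 lower). The part of such cells in the binding protein levels was not tested, and in bulk RNA more cells of a type and more RNA per cell cannot be told apart. On day 14 the hepatic sum was 5.00 FPKM in aMHC+ and 3.31 in aMHC-, with APOC3, TTR and HNF4A at 0 in both. The fibroblast and matrix sum on day 14 was 439 FPKM in aMHC+ and 867 in aMHC-, and the epicardial and endothelial sums were at most 5.41 and 3.47 FPKM. In aMHC- COL3A1 was 409 and COL1A1 256 FPKM of the fibroblast and matrix sum. Against day 7 NKX2-5-, COL3A1, POSTN and FBLN1 were higher in aMHC- and the other genes of this list were lower, such as LUM (7.10 against 93.7 FPKM).

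**Figure D3:**
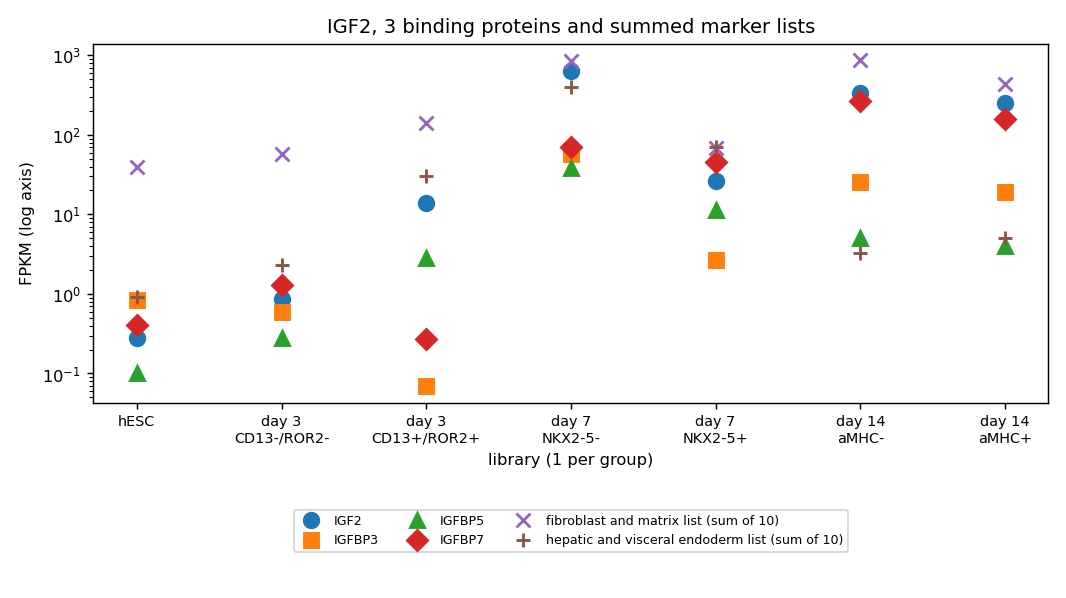
FPKM on a log axis (vertical) of IGF2, IGFBP3, IGFBP5 and IGFBP7 and of the summed fibroblast and hepatic marker lists in the 7 libraries (horizontal axis, 1 point per gene or list). The hepatic sum is 70.5 in day 7 NKX2-5+, 399 in day 7 NKX2-5-, 5.00 in day 14 aMHC+ and 3.31 in day 14 aMHC-, and the fibroblast sum is 68.6, 849, 439 and 867 in the same libraries.

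From day 3 CD13+/ROR2+ to day 7 NKX2-5+, IGFBP7 was higher (45.6 against 0.271 FPKM, log2 ratio 5.20, or 5.76 scaled), 1 of 6 members with at least 5 FPKM. Of all genes 4.38% were higher and 9.09% lower. IGFBP5 had 1.67 and passed the size only after median-ratio scaling (2.28). IGFBP3 had 1.79 and 2.21 scaled, but stood at 2.69 FPKM as deposited and 3.91 scaled, under the minimum. IGFBP4 (-1.78), IGF1R (-1.47) and IGFBP2 (-1.19) were lower without passing the size, and had -1.16, -0.88 and -0.62 after scaling. In day 7 NKX2-5- over the same day 3 library, IGFBP7 (70.2 against 0.271 FPKM, 5.81), IGFBP3 (58.0 against 0.0686, 5.79) and IGFBP5 (38.1 against 2.87, 3.34) were higher, 3 of 7 members with at least 5 FPKM, where 5.35% of all genes were higher and 3.69% lower. IGFBP4 (0.13), IGF1R (-0.18) and IGF2R (-0.10) were near 0. The steps to the 2 day 7 fractions share the day 3 library.

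The day 14 fractions were close. No member was called in aMHC+ over aMHC-, where 0.648% of all genes were higher and 0.35% lower. IGFBP2 (46.2 against 92.6 FPKM, log2 ratio -0.99), IGFBP7 (-0.74), IGFBP4 (-0.72), IGF2R (-0.63), IGFBP3 (-0.42), IGF1R (-0.37) and IGFBP5 (-0.25) had the lower value in aMHC+. IGFBP6 went the other way, at 4.07 against 3.93 FPKM (0.04, or 0.20 scaled). The median of the 6 members with at least 5 FPKM was -0.68 against -0.24 for all genes tested, and the scaling shift of this pair was -0.21.

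Compared with day 7 NKX2-5+, day 14 aMHC+ had more IGFBP2 (46.2 against 3.51 FPKM, log2 ratio 3.39, or 2.88 scaled) and IGFBP3 (19.0 against 2.69, 2.44, or 1.95 and not called when scaled), 2 of 7 members with at least 5 FPKM, with 7.68% of all genes higher and 0.829% lower. In day 14 aMHC- over the same library IGFBP2 (4.38, or 3.66 scaled), IGFBP3 (2.86, or 2.17 scaled) and IGFBP7 (2.51, or 1.70 and not called when scaled) were higher, 3 of 7, with 11.8% of all genes higher and 1.34% lower. IGFBP5 went the other way, at -1.29 in aMHC+ (-1.85 scaled) and -1.05 in aMHC- (-1.78 scaled). IGFBP4 had 0.40 in aMHC+ and 1.12 in aMHC-, or -0.15 and 0.37 scaled, so its direction in aMHC+ turned with the scaling. IGF2R turned likewise in aMHC+ (0.26, or -0.30 scaled).

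**Figure D4:**
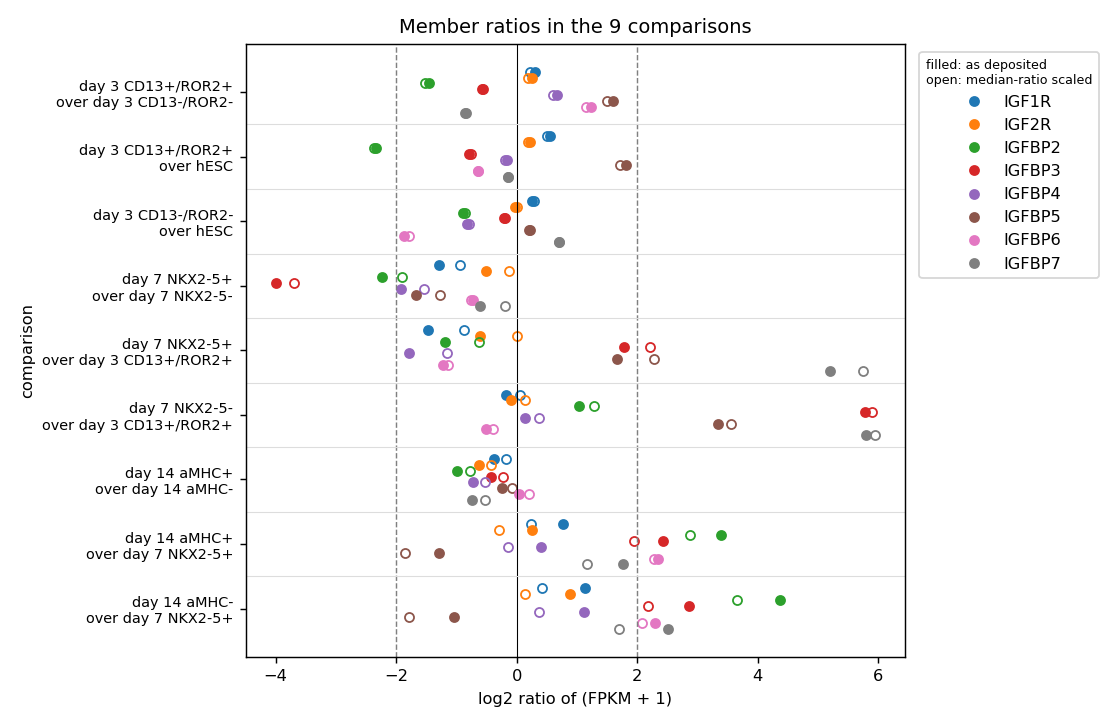
Log2 ratio of (FPKM + 1) (horizontal axis) of 8 members in each of the 9 comparisons (rows), filled as deposited and open after median-ratio scaling; dashed lines mark a size of 2, IGF1 and IGFBP1 are left out for low values, and IGFBP6 includes libraries listed at 0. The largest ratios are those of IGFBP7 and IGFBP3 in day 7 NKX2-5- over day 3 CD13+/ROR2+, at 5.81 and 5.79.

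Other genes of the pathway were read from 6 lists of 61 genes in all. Between day 3 fractions, 26 of the 61 reached 5 FPKM, of which 2 were higher and 2 lower in CD13+/ROR2+, where 3.69% and 2.54% of all genes tested were: IGF2 (14.0 against 0.868 FPKM) and PIK3R1, a regulatory subunit of PI3 kinase (9.89 against 1.42), were higher, while CTGF (2.49 against 14.4) and CYR61 (1.54 against 17.1), matricellular proteins that share the IGFBP-type domain, were lower. Over hESC, where 4.5% of all genes were higher and 2.54% lower, 2 of 25 were higher in CD13+/ROR2+ (IGF2, and PIK3R1, which was not called after scaling) and 1 lower, STC2 (0.573 against 8.99 FPKM), which encodes an inhibitor of the protease that cuts IGFBP4. In CD13-/ROR2- over hESC, 1 of 21 was higher, CYR61 (17.1 against 1.84 FPKM), and 0 lower, with 1.45% and 1.17% of all genes.

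In day 7 NKX2-5+ over NKX2-5-, 28 of the 61 reached 5 FPKM, of which 0 were higher and 6 lower, the same numbers after scaling. Of all genes tested 2.03% were higher and 5.42% lower. They were IGF2 (26.1 against 634 FPKM), the matrix protease gene MMP2 (4.03 against 73.4), CRIM1 (1.25 against 18.2), CTGF (14.5 against 125), CYR61 (5.87 against 38.4) and ADAM12, a protease gene (0.422 against 5.16). PAPPA itself was at 0.644 FPKM in NKX2-5+ and 3.94 in NKX2-5-, its highest level of the 7. In day 7 NKX2-5- over day 3 CD13+/ROR2+, 5 of 31 were higher and 1 lower (5.35% and 3.69% of all genes), among them HTRA1, a protease that cleaves binding proteins (27.3 against 5.42 FPKM), and STC1 (0.358 against 13.4), a further inhibitor of PAPPA. In NKX2-5+ over the same library, with 4.38% of all genes higher and 9.09% lower, 1 of 28 was higher, CTGF (14.5 against 2.49 FPKM), and 3 lower, or 1 after scaling (STC1, 0.623 against 13.4). On day 14, aMHC+ over day 7 NKX2-5+ had 4 of 26 higher and 0 lower (3 higher when scaled), where 7.68% of all genes were higher and 0.829% lower. In aMHC- over the same library 8 of 27 were higher and 0 lower (5 higher when scaled), where 11.8% and 1.34% of all genes were. IGF2, CTGF and CYR61 were called in both, and STC2 (15.4 against 1.35 FPKM) in aMHC-. Between the day 14 fractions 0 of 25 were called, where 0.648% of all genes were higher and 0.35% lower.

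Most of the cell-internal part of the pathway was present throughout. Of 30 genes of receptor adaptors and of the PI3K, AKT and mTOR relay, 27 were at 1 FPKM or more in all 7 libraries, and the median range over the libraries was 1.17 in log2(FPKM + 1). The exceptions at the low end were the insulin receptor substrate genes IRS2 and IRS4 and the adaptor gene GRB14. IRS4 was at 4.90 FPKM in hESC and 4.61 in day 3 CD13-/ROR2- but at most 0.333 in the other 5. GRB14 was at 4.35 FPKM in hESC, 4.29 in day 3 CD13-/ROR2- and 2.19 in day 7 NKX2-5+, and at 0.0197 and 0.103 in day 14 aMHC+ and aMHC-. IRS1 was highest in day 7 NKX2-5-, at 7.36 FPKM, the library with the most IGF2 and IGFBP3. The genes IGF2BP1, IGF2BP2 and IGF2BP3, whose products bind IGF2 mRNA, were at 9.17 FPKM or more in all 7, and 0 of the 3 were called in any comparison. The share of all genes called in no comparison was not counted, so this is not read as a trait of these 3 genes. INS and IGFALS, which encode insulin and the plasma carrier subunit, were listed at 0 in 7 and 6 libraries.

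Patterns across the 7 libraries were compared by Pearson's correlation of log2(FPKM + 1), a description in which the points share day and sort and the scaling of each library. Among 2210 other genes that reached 20 FPKM, those most like IGFBP3 were ARHGDIB (r = 0.997, n = 7 libraries, 28.5 FPKM in day 7 NKX2-5- and 2.34 in NKX2-5+), the syndecan gene SDC2 (r = 0.989) and S100A6 (r = 0.989). Most like IGFBP7 were SLIT2, a secreted guidance factor (r = 0.992, 83.6 FPKM in day 14 aMHC- and 0.535 in day 3 CD13+/ROR2+), the pericyte gene RGS5 (r = 0.991) and DACT3 (r = 0.989). Most like IGFBP5 were the apolipoprotein gene APOA1 (r = 0.939), BMP5 (r = 0.933) and the matrix glycoprotein gene RELN (r = 0.932), and most like IGFBP2 were TMEM9 (r = 0.982), VMP1 (r = 0.968) and SPECC1 (r = 0.968). With 7 points and 2210 genes, high values of r are common. Among the members, IGFBP3 and IGFBP7 had r = 0.88 and IGF1R and IGFBP4 r = 0.80, while IGFBP4 and IGFBP7 had r = -0.50. IGF2, which is not a member, had r = 0.91 with IGFBP3, 0.88 with IGFBP7, 0.82 with IGFBP5, 0.14 with IGFBP2 and -0.18 with IGFBP4.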

How the data were processed

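The authors deposited 1 table of FPKM values with 1 column per library; per the submitters' processing notes Cufflinks and hg19 were used, with versions, aligner and annotation not given in the sources used here. Cells were sorted 2 times before RNA extraction, per the labels' protocols, and libraries came from a TruSeq RNA v2 kit read as single reads on a HiSeq. Of 23368 genes, 106 had blank cells and were left out. Exact zeros can be failed estimates.

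Columns were matched to samples by the label text. Ratios are log2 of (FPKM + 1) in 9 pairs of libraries; the size rule is a ratio of at least 2 and at least 5 FPKM in the higher library. Median-ratio factors come from 7780 genes above 1 FPKM in all libraries. With 1 library per group no test was run, and the steps were tested on simulated data. Work was done in Python 3.11.15 with pandas 2.3.3 and numpy 2.4.6. The members, the 6 pathway lists, the 9 marker lists (pluripotency, heart muscle, hepatic and visceral endoderm, fibroblast and matrix, smooth muscle, endothelium, epicardium, blood and neuroectoderm) and the comparisons were chosen with earlier results of these data known. Named were all members, the ligand, receptor and carrier list, up to 4 called genes of each other list in each comparison, and, for each member that reached 20 FPKM with a range of at least 2 in log2, the 3 most correlated genes; other levels named in the text were chosen after they were seen. Alternatives were pseudocounts of 0.1 and 5, no minimum FPKM, median-ratio scaling, and equal sums without 1712 small RNA and histone genes. Of the genes this takes, 1 is not reported here.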

Additional observations from a re-analysis of the deposited data

How the results depend on the processing

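Of the 9 counts of called members, 5 stayed within 1.5 times under the 5 alternatives. With a pseudocount of 5, which shrinks ratios of low genes, the count was 0 in place of 1 for day 3 CD13+/ROR2+ over hESC, 1 in place of 2 for day 7 NKX2-5+ over NKX2-5- and 1 in place of 2 for day 14 aMHC+ over day 7 NKX2-5+. Median-ratio scaling, which raises the day 7 NKX2-5+ library, gave 1 in place of 2 for day 7 NKX2-5+ over NKX2-5-, 2 in place of 1 for day 7 NKX2-5+ over day 3 CD13+/ROR2+ (IGFBP5 added) and 1 in place of 2 for day 14 aMHC+ over day 7 NKX2-5+. Equal sums without small RNA and histone genes gave 1 for the first of these and 2 for the second. For both day 14 libraries over day 7 NKX2-5+ the equal sums left 2 called members, of which IGFBP2 was shared with the deposited values and IGFBP5 was lower. The 12 called single ratios have 48 values under the scaling and pseudocount alternatives, of which 38 kept the call, 10 lost it and 0 changed sign. A further 5 values of ratios that were not called passed the size rule. No paired analysis was possible because each group is 1 library. Absolute depth is unknown, and levels under 1 FPKM, such as those of IGF1 in all libraries and of IGFBP3 and IGFBP5 in hESC, rest on few reads.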
